A study of Mus musculus with 8 samples.

Results

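The genes described here are 36 genes of skeletal muscle and its precursors, the myoblasts, chosen by name as regulators of the lineage, parts of the acetylcholine receptor and its synapse, and parts of the contractile apparatus. The choice was made with earlier results of these data known, so counts of called genes among them are not independent of the data. All 36 had a probe, among 22872 genes with a symbol on the array. They were measured in adherent stromal cells grown from the abdominal subcutaneous fat of male C57BL/6 mice, called adipose-derived mesenchymal stem cells by the submitters. Feeding began at 6 weeks of age, and every culture was passaged 2 or 3 times before its RNA was taken. The 4 groups were a diet with 60% fat for 24 weeks (HF24), chow for 24 weeks (C24), the same 60% fat diet for 12 weeks (HF12) and chow for 12 weeks (C12), with 2 one-colour arrays each. No genetic change is stated for any group. The labels do not say whether the 2 arrays of a group came from separate mice or cultures. A p-value here rests on the scatter between the 2 arrays of a group, pooled over the 4 groups. That scatter could be purely technical.

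Skeletal muscle fibres form from myoblasts. Pax7 marks the resident precursor, the satellite cell; Myf5 and Myod1 commit it to the lineage, and Myog switches on terminal differentiation, in which myoblasts leave the cell cycle and fuse. Fusing cells then make the muscle-type acetylcholine receptor, embryonic and perinatal myosins, and the troponins that let calcium control contraction. Most of these genes are known for muscle rather than fat, but several are not limited to skeletal muscle: the heart makes Actc1, Tnnc1, Casq2, Ttn, Actn2, Myl4, Des and Mef2c, and smooth muscle also makes Des.

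All 8 arrays lay on 1 slide. The 24-week arrays filled one slide row and the 12-week arrays the other, and the high-fat and chow arrays filled different slide columns, so slide position cannot be told apart from feeding time or diet. On the 24-week arrays 57.6% to 62.4% of probes were well above background, against 65.1% to 67.2% on the 12-week arrays. Stromal markers were present throughout: 11 of the 11 with a probe were well above background on all 8 arrays, with a summed level of 791 to 891. Summed levels of marker lists, here and below, add linear intensities relative to the array's 75th percentile. The brightest genes of a list therefore weigh most in its sum. Levels of single genes below are log2 intensities minus the array's 75th percentile, so a negative level is a signal below that percentile. They may be compared between arrays for 1 gene, not between genes. Of the 36 genes, 31 were well above background on all 8 arrays. Myf6 was so on 7 arrays, Ckm and Klhl41 on 6 each, Pax7 on 2 and Myf5 on 0. Myf5 was therefore not tested, which leaves 35 genes tested among 29585 genes or unnamed features. Changes are given as log2 change ± standard error from limma (2 arrays per group), and a gene is called when its Benjamini-Hochberg adjusted p over all features is under 0.05.

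The first comparison asks how the muscle genes differed between the HF24 and C24 cells. They were lower in HF24 cells almost as a block. Of 35 genes tested, 30 were lower, 28 of them at least 2-fold, 1 was higher and 4 were not called. Over all features tested, 20.2% were called lower, 6.19% lower by at least 2-fold, and 12.9% higher. The median log2 change of the 35 genes was −1.91, against −0.01 over all features. Among the 31 genes above background on every array 28 were lower and 1 higher, against 19.4% and 14.4% of such features. Both HF24 arrays lay below both C24 arrays for 32 genes, above them for 2, and overlapped them for 1. Of the 29585 features 10664 lay below and 9962 above in this way. The arrays measure whole cultures, in which fewer cells making a transcript and less of it per cell cannot be told apart.

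**Figure D1:**
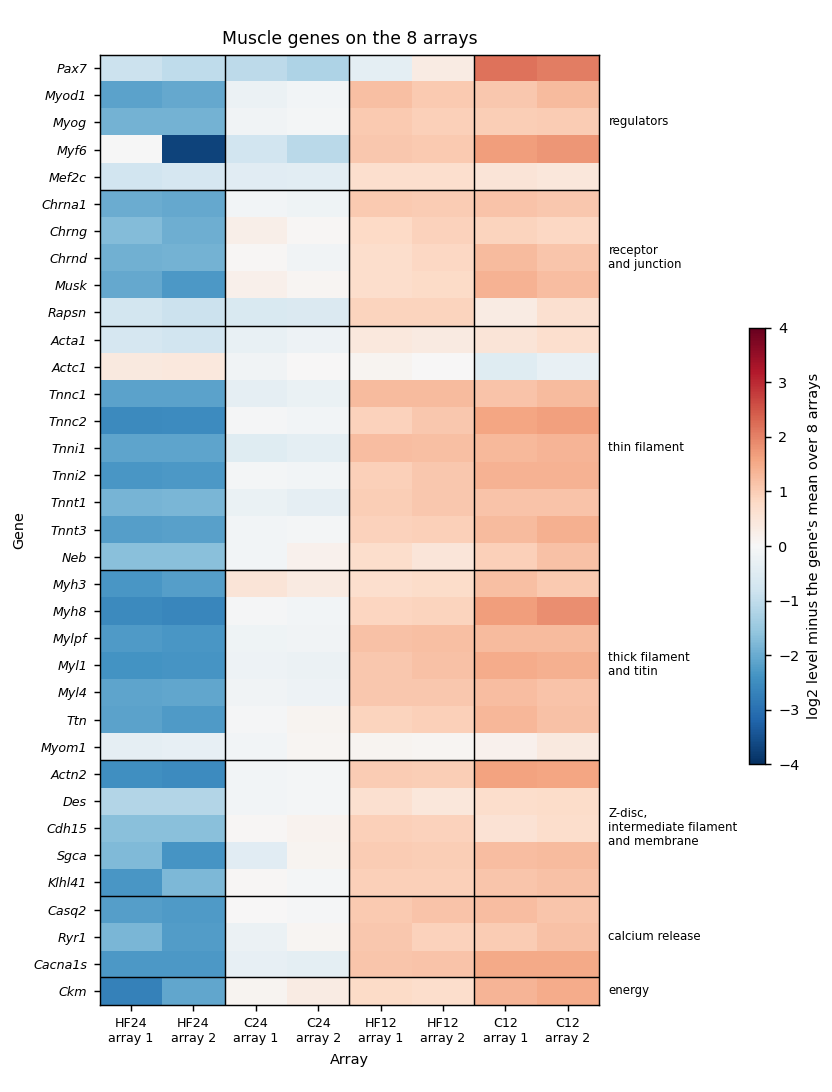
Each row is one of the 35 tested muscle genes, grouped by role, and each column an array. Colour shows the log2 level minus the gene's own mean over the 8 arrays, from blue (lower) to red (higher). The 2 HF24 columns are the bluest for nearly all genes, with Actc1, Pax7 and, on array 1, Myf6 as exceptions.

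The regulators are described first. Myog had log2 levels of −0.17 and −0.18 on the HF24 arrays, 1.58 and 1.65 on the C24 arrays, 2.75 and 2.68 on the HF12 arrays, and 2.69 and 2.74 on the C12 arrays. HF24 was thus lowest, C24 lay between, and the 12-week groups overlapped. The HF24 minus C24 change was −1.79 ± 0.06, or 3.45-fold lower (limma adjusted p = 5.17e-05). Myod1, the factor upstream of Myog, had −3.87 and −3.79 in HF24, −1.97 and −1.83 in C24, −0.54 and −0.69 in HF12, and −0.66 and −0.47 in C12. It took the same order as Myog, and the change at 24 weeks was −1.93 ± 0.10 (3.81-fold lower, limma adjusted p = 0.000136). Mef2c, which acts with these factors on muscle genes, differed far less. It had 0.37 and 0.47 in HF24 and 0.67 and 0.71 in C24, a change of −0.27 ± 0.06 (limma adjusted p = 0.0161). That call was lost when C24 replicate 1 (adjusted p = 0.0554), C24 replicate 2 (0.0737) or HF24 replicate 1 (0.102) was left out, and when only HF24 and C24 were fitted (0.0616).

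The other 3 regulators gave no call at 24 weeks. Pax7 was well above background only in C12, at −4.46 and −4.60. It read −7.51 and −7.66 in HF24, −7.67 and −7.88 in C24, and −7.02 and −6.30 in HF12, none of them well above background. Myf5 was not well above background on any array. Myf6, a late regulator of the MyoD family, had −3.28 on HF24 replicate 1 but −6.97, not well above background, on HF24 replicate 2, against −4.05 and −4.37 in C24. The 2 HF24 arrays thus lay on either side of C24, and the change of −0.92 ± 1.08 was not called (limma adjusted p = 0.558). Without HF24 replicate 2 it was 0.93 (adjusted p = 0.0095), and without HF24 replicate 1 it was −2.76.

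Genes of the muscle acetylcholine receptor and its synapse came next. Chrna1, the subunit that binds acetylcholine, had −0.36 and −0.42 in HF24, 1.50 and 1.46 in C24, 2.67 and 2.63 in HF12, and 2.77 and 2.69 in C12. Again HF24 lay lowest and C24 next, with no overlap, and the change at 24 weeks was −1.87 ± 0.06 (3.66-fold lower, limma adjusted p = 4.85e-05). Chrng, the subunit of the fetal receptor, had −0.67 and −0.87 in HF24 and 1.30 and 1.12 in C24, a change of −1.98 ± 0.10. Chrnd, its neighbour on chromosome 1, changed by −1.85 ± 0.10. Musk, the receptor kinase that organises the synapse, changed by −2.29 ± 0.11, or 4.89-fold lower. Rapsn, which clusters the receptor, went without a call: it had −2.77 and −2.88 in HF24 and −2.63 and −2.60 in C24, a change of −0.21 ± 0.11 (limma adjusted p = 0.208). Of the 5 receptor and synapse genes, 4 were lower.

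**Figure D2:**
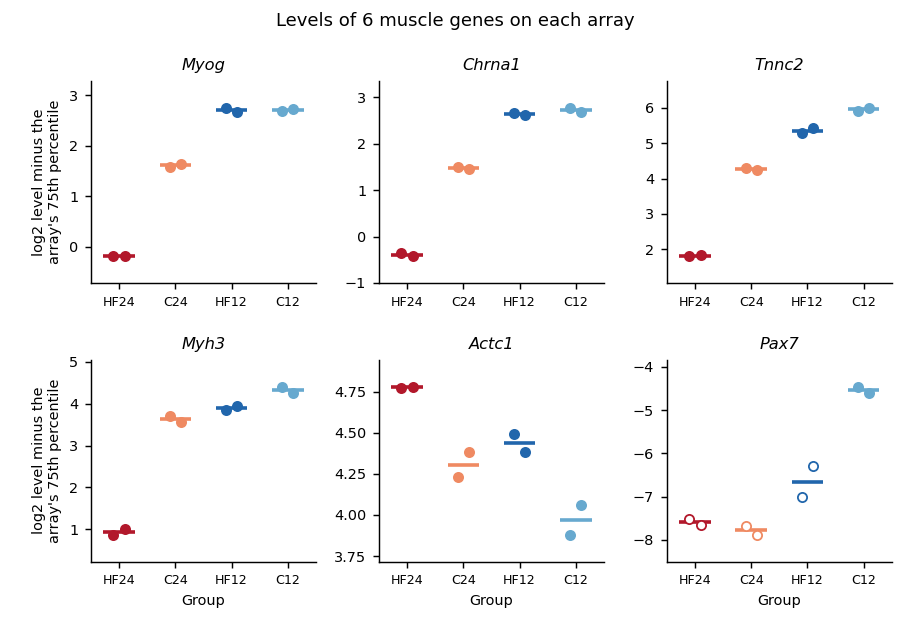
Points are the 2 arrays of each group and lines their mean, on the log2 scale minus the array's 75th percentile; each panel has its own axis, which does not start at 0. Open points belong to groups in which the gene was not well above background. Myog, Chrna1, Tnnc2 and Myh3 are lowest in HF24, Actc1 is highest there, and Pax7 is measured in C12 alone.

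Promoter sequences are shown for 5 genes, because 4 of them fell together in HF24 and the fifth, Actc1, was the gene called higher. Each is the 250 bases before the annotated start, on the gene's own strand, from RefSeq on GRCm38.p6. Capitals mark matches to CANNTG, the E-box, the short motif that MyoD-family factors are known to bind. The windows are chr1:134289754-134290003 on the plus strand for Myog, chr2:73580339-73580588 on the minus strand for Chrna1, chr1:87205561-87205810 on the plus strand for Chrng, chr7:127211358-127211607 on the plus strand for Mylpf, and chr2:114052876-114053125 on the minus strand for Actc1.
Myog: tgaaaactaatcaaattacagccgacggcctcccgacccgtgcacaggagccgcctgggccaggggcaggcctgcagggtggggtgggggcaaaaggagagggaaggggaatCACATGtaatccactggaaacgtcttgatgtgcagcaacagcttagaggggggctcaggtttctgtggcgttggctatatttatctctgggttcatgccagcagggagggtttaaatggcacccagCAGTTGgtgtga
Chrna1: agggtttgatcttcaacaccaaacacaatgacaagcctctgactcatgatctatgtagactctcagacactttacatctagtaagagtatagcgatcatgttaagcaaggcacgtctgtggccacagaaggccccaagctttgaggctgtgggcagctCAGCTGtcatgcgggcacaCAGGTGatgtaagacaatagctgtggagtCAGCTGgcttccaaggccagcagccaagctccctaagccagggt
Chrng: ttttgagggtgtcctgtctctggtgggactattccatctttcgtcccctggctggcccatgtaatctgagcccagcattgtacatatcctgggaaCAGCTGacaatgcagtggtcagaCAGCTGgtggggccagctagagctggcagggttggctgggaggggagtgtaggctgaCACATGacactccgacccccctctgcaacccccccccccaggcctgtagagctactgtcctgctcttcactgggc
Mylpf: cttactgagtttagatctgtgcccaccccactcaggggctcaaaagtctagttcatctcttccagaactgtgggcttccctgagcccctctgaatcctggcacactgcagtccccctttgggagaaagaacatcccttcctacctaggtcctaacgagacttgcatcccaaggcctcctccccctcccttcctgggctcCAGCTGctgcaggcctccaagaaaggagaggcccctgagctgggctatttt
Actc1: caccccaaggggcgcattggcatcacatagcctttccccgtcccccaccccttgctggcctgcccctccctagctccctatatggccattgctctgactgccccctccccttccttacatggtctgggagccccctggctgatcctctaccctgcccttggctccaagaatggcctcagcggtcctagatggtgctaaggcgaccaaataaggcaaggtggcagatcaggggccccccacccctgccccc

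The Chrna1 and Chrng windows hold 3 matches each, the Myog window 2, the Mylpf window 1 and the Actc1 window 0. The windows of Myl4 and Ryr1, which were lower in HF24 (−1.91 for Myl4 and −1.96 for Ryr1), also hold 0, so 0 matches was not particular to Actc1. The form CAGCTG, which like CANNTG reads the same on both strands and is counted within it, begins 92 and 44 bases before the start of Chrna1, 155 and 132 before that of Chrng, and 51 before that of Mylpf. RefSeq's table held 32 promoter entries for 29 of the 36 genes. CANNTG occurred in 26 of the 32 (81.2%), against 66.2% of 32851 mouse promoter windows of the same length. CAGCTG occurred in 12 of the 32 (37.5%), against 4271 of the 32851. A match is only a run of letters, and no binding was measured.

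The thin filament holds actin, nebulin and the troponin complex, whose subunits come in a fast-fibre and a slow-fibre form. Tnnc2, the fast calcium-binding troponin C, had 1.81 and 1.84 in HF24, 4.30 and 4.23 in C24, 5.28 and 5.42 in HF12, and 5.92 and 5.99 in C12. All 4 groups were apart, and the change at 24 weeks was −2.44 ± 0.07 (5.43-fold lower, limma adjusted p = 4.85e-05). The slow form Tnnc1, which the heart also makes, had −1.26 and −1.28 in HF24 and 0.51 and 0.60 in C24, a change of −1.82 ± 0.07. In the troponin I pair, the fast Tnni2 changed by −2.22 ± 0.06 and the slow Tnni1 by −1.67 ± 0.06. In the troponin T pair, the fast Tnnt3 changed by −2.11 ± 0.07 and the slow Tnnt1 by −1.53 ± 0.06. The fast form thus had the more negative change in all 3 pairs, by −0.62 for troponin C, −0.55 for troponin I and −0.58 for troponin T. These differences are a description made after the values were seen. An exact permutation test of 2 arrays against 2 cannot give a two-sided p below 0.333, so none was run.

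Neb, the giant ruler protein of the thin filament, changed by −1.69 ± 0.13. The actins stood apart from the troponins. Acta1, the adult skeletal actin, had 3.18 and 3.11 in HF24 and 3.55 and 3.66 in C24, a change of only −0.46 ± 0.08 (1.37-fold lower, limma adjusted p = 0.00877). Actc1, the cardiac actin that embryonic skeletal muscle also makes, had 4.77 and 4.78 in HF24, 4.23 and 4.38 in C24, 4.49 and 4.38 in HF12, and 3.88 and 4.06 in C12. HF24 was its highest group, and the change was 0.47 ± 0.09 (1.39-fold higher, limma adjusted p = 0.0111). It was not called without C24 replicate 1 (0.39, adjusted p = 0.0566) or without HF24 replicate 1 (0.47, adjusted p = 0.0509). The coding sequences of actin genes are closely alike, so 1 probe may not tell them apart. Smooth muscle and pericyte markers moved the same way as Actc1: the summed level of 10 genes was 461 to 473 in HF24 and 340 to 349 in C24, with 5 genes called higher and 1, Des, lower. Their part in the Actc1 result was not tested.

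In the thick filament the embryonic myosin heavy chain Myh3 showed the largest change at 24 weeks among the genes above background in both groups. It had 0.87 and 1.00 in HF24, 3.72 and 3.57 in C24, 3.86 and 3.94 in HF12, and 4.41 and 4.25 in C12. HF24 lay far below the other 3 groups, and the change was −2.71 ± 0.09, or 6.54-fold lower (limma adjusted p = 5.32e-05). Myh8, the perinatal heavy chain, had −0.37 and −0.43 in HF24, 2.12 and 2.06 in C24, 3.02 and 3.06 in HF12, and 3.84 and 4.01 in C12. All its groups were apart, and the change was −2.48 ± 0.07 (5.6-fold lower). Myh3 and Myh8 lie in the same cluster of similar genes on chromosome 11, so their probes may share signal. The light chains moved with them. Mylpf, the regulatory light chain of fast fibres, had 1.78 and 1.73 in HF24 and 3.87 and 3.91 in C24, a change of −2.14 ± 0.05. Myl1, a fast essential light chain, changed by −2.16 ± 0.06, and Myl4, the embryonic one, by −1.91 ± 0.06. The spring protein gene Ttn changed by −2.22 ± 0.08. Myom1, which links thick filaments at the M-band, was not called, at −0.32 ± 0.10 (limma adjusted p = 0.055). It was called with only probes well above background on all arrays (adjusted p = 0.0343) and with an intensity trend in the variance (0.0293).

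At the Z-disc and the cell membrane all 5 genes were lower. Actn2, which anchors actin at the Z-disc, had −0.89 and −0.97 in HF24, 1.43 and 1.46 in C24, 2.56 and 2.54 in HF12, and 3.16 and 3.14 in C12. The groups did not overlap, and the change at 24 weeks was −2.38 ± 0.05 (5.19-fold lower, limma adjusted p = 3.80e-05). Des, the muscle intermediate filament, changed less, by −1.10 ± 0.07. The myoblast adhesion gene Cdh15 (M-cadherin) had −2.65 and −2.67 in HF24 and −0.94 and −0.84 in C24, a change of −1.77 ± 0.07. Sgca, of the sarcoglycan complex, changed by −1.90 ± 0.24. Klhl41, a sarcomere assembly factor, was not well above background in HF24 and was at least 2.94-fold lower there. This bound sets the C24 mean against the higher, on each HF24 array, of the gene's own reading and the lowest signal counted as well above background.

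The 3 calcium release genes were also lower. Casq2, a calcium store protein of slow muscle and heart, had −0.60 and −0.66 in HF24 and 1.61 and 1.54 in C24, a change of −2.20 ± 0.07. Cacna1s, the voltage sensor, had −1.71 and −1.71 in HF24 and 0.26 and 0.17 in C24, a change of −1.93 ± 0.06. The release channel gene Ryr1 changed by −1.96 ± 0.16. Ckm, the muscle creatine kinase, read −7.12 and −6.49 in HF24, not well above background, and −4.32 and −4.11 in C24. It was at least 2.27-fold lower in HF24 (limma adjusted p = 0.000487).

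Of the 36 genes, 16 have more than 1 probe and these give 19 further probes. In HF24 against C24, 17 of the 19 were called in the direction of the probe used here. An exception was a dim second probe of Mylpf, for a predicted transcript, at 0.20 ± 0.11 (limma adjusted p = 0.231). The other was a second probe of Mef2c at −0.64 (adjusted p = 0.0531). Agreement was poorer in HF12 against C12, described below. There 11 of the further probes belonged to called genes, and 5 of those were called in the same direction. The further probes of Myh3, Myh8, Neb, Ttn and Musk, several of them dim, were not called in that comparison. For the comparisons given later, 17 of the 19 went the same way in C24 against C12, 18 in HF24 against HF12 and 17 in the interaction. The second Mylpf probe was an exception in each. The others were second probes of Chrng in C24 against C12 (−0.29, limma adjusted p = 0.13) and Myh8 in the interaction (−0.84, adjusted p = 0.131).

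A longer list of 98 other skeletal muscle genes was compared in the same way. It too was chosen with earlier results of these data known, so its counts describe the list and are not separate evidence. Of these, 92 were tested, and 57 were lower, 6 higher and 29 not called in HF24 relative to C24, with a median log2 change of −0.91. The shares over all features, 20.2% lower and 12.9% higher, apply to this list and its groups too. Sarcomere genes led: 29 of 36 were lower and 0 higher. Among them the adult fast myosin Myh1 had −0.84 and −0.85 in HF24 and 1.63 and 1.61 in C24, a change of −2.46. The Z-disc genes Csrp3 (−2.38) and Tcap (−2.10), the light chain gene Myl3 (−2.17) and the thin filament nucleator gene Lmod3 (−1.93) were lower too. Of 11 genes of fusion and late myoblasts, 7 were lower and 0 higher. They included both fusion proteins of the myoblast membrane, Mymk (−1.53) and Mymx (−1.81), as well as Bex1 (−1.93), Jam2 (−0.71) and Dok7 (at least 2.2-fold lower), which activates the kinase MuSK. Of 19 genes of excitation-contraction coupling and the membrane, 11 were lower and 2 higher. Trdn, whose product triadin links the calcium store to the release channel, was at least 6.98-fold lower. Sln (−1.98), a regulator of the calcium pump, Cav3 (−1.74), Cacng1 (−1.76) and Srl (−1.93) were lower as well.

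The satellite cell and commitment genes were less uniform. Of 12 tested, 5 were lower and 3 higher. Vgll2 (−1.76), Megf10 (−0.78) and Itga7 (−0.73) were lower, and the receptor gene Fgfr4 was at least 2.71-fold lower. Eya2, a coactivator in early muscle commitment, was higher: it had 2.47 and 2.47 in HF24 and 1.84 and 1.82 in C24, a change of 0.64. Of 4 further junction genes 1 was lower, Colq (−1.12), which anchors acetylcholinesterase; a share that small is close to the 20.2% over all features. Of 10 muscle metabolism genes 4 were lower and 1 higher. The glycolytic Pgam2 changed by −1.92, Eno3 by −1.35, myoglobin (Mb) by −1.48 and the glycogen phosphorylase gene Pygm by −0.89. The muscle form of a respiratory subunit, Cox6a2, was higher by 0.26.

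**Figure D3:**
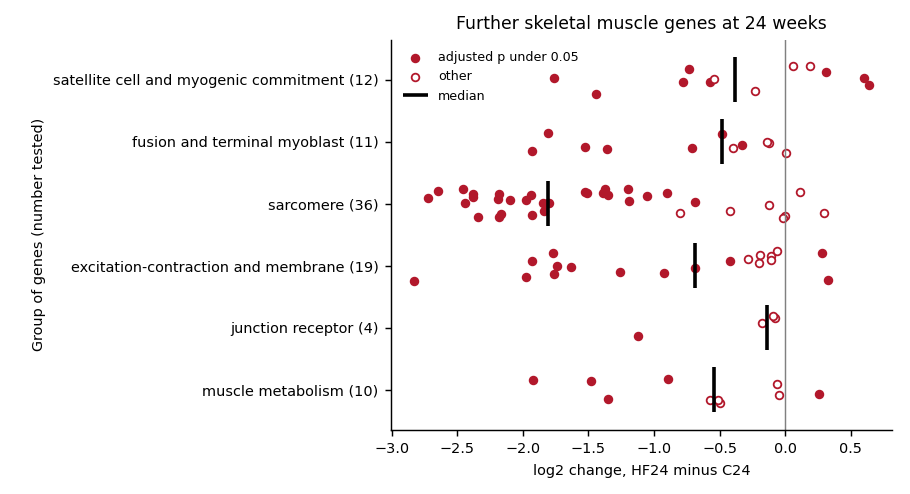
Each point is 1 of the 92 further muscle genes, placed by its log2 change in HF24 minus C24; vertical position within a row carries no meaning. Filled points passed the adjusted p threshold and black bars are medians. The sarcomere row has the lowest median, the single lowest point is Trdn in the excitation-contraction row, and the satellite cell row spreads to both sides of 0.

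Markers of other cells differed between the same groups. The summed level of 10 macrophage genes was 162 to 166 in HF24 and 85.6 to 88.7 in C24, with 8 called higher and 1 lower. The 7 Schwann cell genes summed to 0.894 to 0.897 in HF24 and 2.13 to 2.25 in C24, and 6 of the 6 tested were lower. The 8 keratinocyte genes summed to 2.46 to 2.75 in HF24 and 6.01 to 6.13 in C24, with 4 of 5 tested lower. Their Krt15 and Cdh1, and Erbb3 of the Schwann list, were above background on no array. The 11 stromal genes summed to 806 to 837 in HF24 and 878 to 891 in C24. Of the 11 heart genes, 3 of 9 tested were lower and 1 higher, with a summed level of 2.4 to 2.56 in HF24 and 8.33 to 8.71 in C24. Several heart genes, the bright Myl3 among them, are also on the longer list of skeletal muscle genes. The heart values are therefore not separate from the muscle results. The atrial light chain gene Myl7 was above background on no array. The 10 mature adipocyte genes summed to 38.1 to 39.5 in HF24 and 35.8 to 36.2 in C24, with 6 called lower and 1 higher. The 7 endothelial genes summed to 21.4 to 22 in HF24 and 14.9 to 15.5 in C24, with 4 called higher and 0 lower. The 7 brown adipocyte genes summed to 2.24 to 2.3 in HF24 and 2.05 to 2.22 in C24, and Ucp1 was above background on no array. The part of these differences in the muscle results was not tested.

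The same diet comparison after 12 weeks was smaller and mixed. In HF12 against C12, 13 of 35 genes were lower, 3 higher and 19 not called, beside 17.6% and 13.7% of all features, and the median log2 change was −0.19 (−0.03 over all features). Leaving out single arrays changed the count of lower genes to 7 (C12 replicate 1 omitted), 7 (HF12 replicate 1 omitted) or 8 (HF12 replicate 2 omitted). Both HF12 arrays lay below both C12 arrays for 25 genes, above for 4 and overlapped for 6, where 38.6% and 30.1% of all features lay below and above.

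The differentiation regulators and the receptor subunit Chrna1 gave no call. Myog, with the levels given above, differed by 0.00 ± 0.06 (limma adjusted p = 0.995), Myod1 by −0.05 ± 0.10 and Chrna1 by −0.08 ± 0.06. The exception among the regulators was Pax7, at least 3.35-fold lower in HF12 than in C12 (limma adjusted p = 0.00135), where it was the gene with the largest change. Myf6 (−0.65 ± 1.08, adjusted p = 0.689) was not called in the fit over all groups, whose spread includes its 2 unlike HF24 arrays. It was called lower with only HF12 and C12 fitted (0.00513). Ckm (−0.68 ± 0.21, adjusted p = 0.0547) was not called either, but passed under quantile normalization (0.0268) and with only HF12 and C12 fitted (0.00626). Among sarcomere genes, Myh8 had 3.02 and 3.06 in HF12 and 3.84 and 4.01 in C12, a change of −0.89 ± 0.07 (limma adjusted p = 0.000429). Actn2 changed by −0.60 ± 0.05 and Tnnc2 by −0.61 ± 0.07. The fast troponins Tnni2 (−0.37 ± 0.06) and Tnnt3 (−0.41 ± 0.07) were lower too, whereas the slow Tnnc1, Tnni1 and Tnnt1, at 0.05, −0.09 and −0.10, were not called. Smaller calls, all but Cacna1s lost when C12 replicate 1 was left out, were those of Chrnd (−0.43), Musk (−0.57), Myh3 (−0.43), Neb (−0.45), Myl1 (−0.34), Ttn (−0.31) and Cacna1s (−0.40).

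The genes higher in HF12 were Actc1 (0.47 ± 0.09, limma adjusted p = 0.0126), Rapsn (0.40 ± 0.11, adjusted p = 0.0409) and Cdh15 (0.32 ± 0.07, adjusted p = 0.0179). Cdh15 had −0.03 and −0.05 in HF12 and −0.42 and −0.29 in C12, so the groups were apart, with HF12 the higher, where HF24 was the lower at 24 weeks. None of the 3 was called without C12 replicate 1 or without HF12 replicate 1, and 1 of them, Actc1, without HF12 replicate 2. On the longer list 39 of 92 genes were lower and 6 higher. Macrophage markers summed to 211 on both HF12 arrays and 42.9 to 43.5 in C12, and mature adipocyte markers to 94 to 97.2 in HF12 and 604 to 608 in C12. Smooth muscle and pericyte markers summed to 296 to 300 in HF12 and 226 to 247 in C12. Their part in these calls was not tested.

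**Figure D4:**
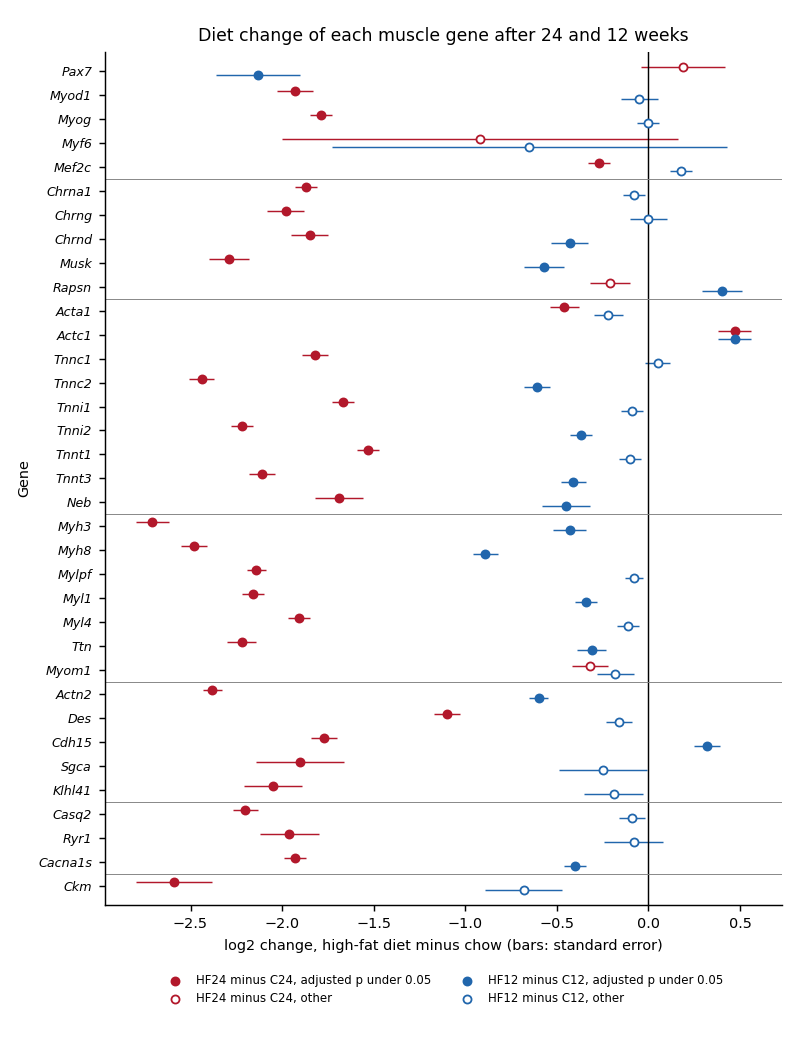
Points are the log2 change of each gene, high-fat diet minus chow, with bars of 1 standard error; red is HF24 minus C24 and blue HF12 minus C12, and filled points passed the threshold. Most red points lie near −2, and most blue points lie close to 0. Actc1 has both points at 0.47.

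Whether the diet change differed between the feeding times was tested by the interaction, the HF24 minus C24 change less the HF12 minus C12 change. It was negative and called for 30 of 35 genes and positive for 1, beside 16.9% and 12.7% of all features, with a median of −1.78 (−0.04 over all features). For Myog it was −1.79 ± 0.08 (limma adjusted p = 8.62e-05), for Chrna1 −1.79 ± 0.08, for Tnnc2 −1.83 ± 0.10 and for Myh3 −2.28 ± 0.13. For Cdh15, whose diet change had opposite signs, it was −2.09 ± 0.10. Pax7 gave the positive value, 2.32 ± 0.33. Of its groups C12 alone was well above background, so 3 of the 4 readings behind this value are background and it has no interpretable size. No call was made for Actc1 (0.01 ± 0.13), Acta1 (−0.24 ± 0.12), Myom1 (−0.14 ± 0.14) or Myf6 (−0.27 ± 1.53).

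The last comparisons ask how the genes differed between 24 and 12 weeks of feeding, which also differ in the age of the mice and in slide row. They share arrays with the diet comparisons and with the interaction, and so are given beside them, not as separate evidence. On the high-fat diet 33 of 35 genes were lower at 24 weeks and 1 higher, beside 25.5% and 21.1% of all features. The median log2 change was −3.04 (−0.03 over all features). On chow 32 were lower at 24 weeks and 1 higher, beside 22.0% and 24.5% of all features, with a median of −1.24 (0.02 over all features). The gene higher on each diet was Actc1, by 0.34 ± 0.09 on the high-fat diet and 0.33 ± 0.09 on chow. In the high-fat comparison its call was lost under quantile normalization (0.20, adjusted p = 0.17), under normexp with quantile normalization (0.16, adjusted p = 0.192) and when any 1 of the 4 arrays compared was left out. In the chow comparison it was lost under quantile normalization (0.30, adjusted p = 0.0586), without C12 replicate 1 (0.116), without C24 replicate 2 (0.126) and with only the 2 groups fitted (0.0789).

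On the high-fat diet Tnnc2 was 11.5-fold lower at 24 than at 12 weeks (−3.53 ± 0.07), Myl1 11.3-fold (−3.49 ± 0.06), Actn2 11.2-fold (−3.48 ± 0.05) and Mylpf 11.1-fold (−3.47 ± 0.05). The regulators Myod1 and Myog were 9.31-fold and 7.39-fold lower, and Chrna1 8.22-fold. Rapsn (−1.68), Mef2c (−1.38), Acta1 (−1.09) and Myom1 (−0.42) changed least among the called genes that were lower and above background in both groups. The Myom1 call was lost under quantile normalization (adjusted p = 0.0529) and without any 1 of the 4 arrays compared (0.0549 to 0.0761). Pax7 was called lower (−0.92), but it was not well above background in either group, so no fold is given. The call was lost with a variance trend (adjusted p = 0.0672), with only HF24 and HF12 fitted (0.0676), and without HF24 replicate 1 (0.0559) or 2 (0.0805). Myf6, at −2.91 ± 1.08, was not called (limma adjusted p = 0.072). With HF24 replicate 1 omitted it was −4.76 (adjusted p = 8.68e-05), and with HF24 replicate 2 omitted −1.07 (0.00519), so its size depended on which HF24 array was kept.

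On chow the largest changes among called genes above background in both groups were those of Cacna1s (−1.88 ± 0.06, 3.68-fold lower), Myh8 (−1.84 ± 0.07) and Tnni1 (−1.75 ± 0.06). Pax7 was at least 2.1-fold lower in C24 than in C12. Myog changed by −1.10 ± 0.06, Myod1 by −1.34 ± 0.10 and Chrna1 by −1.25 ± 0.06. Myh3 (−0.69 ± 0.09), Chrng (−0.72 ± 0.10) and Cdh15 (−0.53 ± 0.07) changed less. Myf6 (−2.64 ± 1.08, limma adjusted p = 0.0954) was not called in the fit over all groups, whose spread includes its 2 unlike HF24 arrays. It was called with only C24 and C12 fitted (0.000921), without either HF24 array (0.000111), with a variance trend (0.031) and under normexp with quantile normalization (−1.89, 0.00195). Myom1 (−0.29 ± 0.10, adjusted p = 0.0585) was not called either, but passed under 6 alternatives (0.0327 to 0.0479).

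By group mean, 33 of the 35 genes were lowest in HF24 with C24 next. In 28 of these HF12 came next and C12 was highest, and in 5 HF12 and C12 changed places. The share of all features in these orders was not counted, so the counts have no background beside them. The 33 include Myf6, whose HF24 arrays lay on either side of C24. They also include Myom1, not called in HF24 against C24 or in C24 against C12. Actc1 ran in another order, lowest in C12 and highest in HF24, and Pax7 was highest in C12, with its other 3 groups not well above background and so without an order. For genes such as Myog and Chrng the means of HF12 and C12 did not differ beyond the spread of their arrays.

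**Figure D5:**
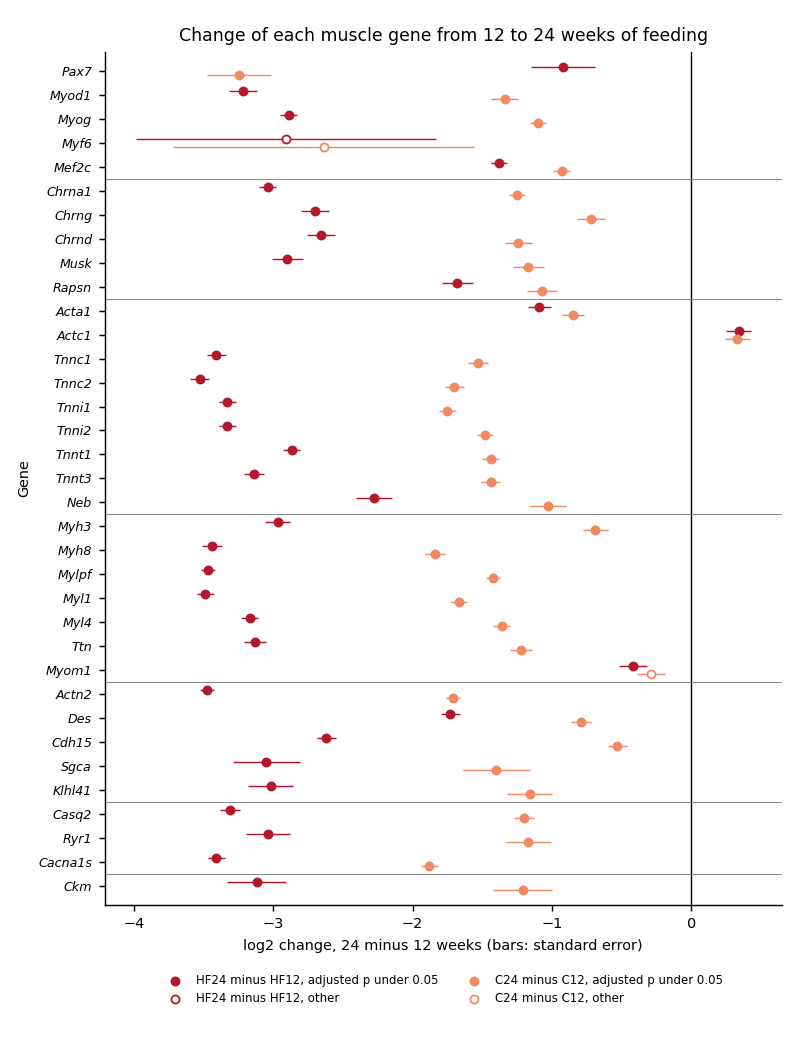
Points are the log2 change of each gene, 24 minus 12 weeks, with bars of 1 standard error; red is the high-fat diet (HF24 minus HF12) and orange is chow (C24 minus C12), and filled points passed the threshold. Most red points lie near −3 and most orange points between −1 and −2. Actc1 is the gene to the right of 0.

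On the longer list 66 of 92 genes were lower and 9 higher in HF24 than in HF12, beside 25.5% and 21.1% of all features. In C24 against C12, 70 were lower and 5 higher, beside 22.0% and 24.5%. For Sln the change was −4.87 on the high-fat diet and −3.36 on chow, and for myoglobin (Mb) it was −3.77 on the high-fat diet and −2.91 on chow. Markers of other cells also differed between the feeding times, some lists in the direction of the muscle genes and others not. For mature adipocytes 9 of 10 genes were lower at 24 weeks on each diet: their summed level was 38.1 to 39.5 in HF24 and 94 to 97.2 in HF12, and it was 35.8 to 36.2 in C24 and 604 to 608 in C12. Smooth muscle and pericyte genes moved the way Actc1 did, with 9 of 10 higher at 24 weeks on each diet and Des lower. They summed to 461 to 473 in HF24 and 296 to 300 in HF12, and to 340 to 349 in C24 and 226 to 247 in C12. Of 10 macrophage genes 2 were higher and 7 lower in HF24 than in HF12, and 9 were higher in C24 than in C12. Of 6 Schwann genes 6 were lower in HF24 than in HF12, while 4 were higher and 1 lower in C24 than in C12. Of 7 endothelial genes 6 were higher at 24 weeks on each diet. Of 6 brown adipocyte genes tested 2 were higher and 4 lower in HF24 than in HF12, and 5 were lower in C24 than in C12. Heart genes, several of them shared with skeletal muscle, summed to 2.4 to 2.56 in HF24 and 20.6 to 21.1 in HF12, and to 8.33 to 8.71 in C24 and 23.5 to 25.6 in C12. Of 5 keratinocyte genes 3 were higher and 2 lower in HF24 than in HF12, and 4 were higher and 1 lower in C24 than in C12. The part of these differences in the muscle results was not tested.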

How the data were processed

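Cy3-labelled total RNA was hybridised to 1-colour Agilent mouse arrays and read with Agilent Feature Extraction 11.0.1.1, per the submitters' processing notes. Per the file headers, the processed intensity that the authors deposited had its background subtracted within each array and was not normalised between arrays. A table of log2 values, also deposited, equals log2 of that intensity plus a constant for each array, as found here by comparing the files; how the constant was set is not given in the sources used here.

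Spots flagged as outliers anywhere were dropped, which removed 192 of 56605 probes. Each array's 75th percentile was subtracted on the log2 scale, and repeated spots of a probe were averaged. Probes had to be well above background, by the deposited flag, on both arrays of at least 1 group, and each gene took its brightest such probe. Accessions were matched to RefSeq's gene table (GRCm38.p6), which named 58.3% of probes. The headers name build mm9, so coordinates are given only for RefSeq's own promoter windows. The model (limma 3.58.1, R 4.3.3) had a mean for each of the 4 groups over all 8 arrays; its two-sided p-values were adjusted (Benjamini-Hochberg) across 29585 features. The procedure was tested on simulated data. Matplotlib 3.10.9 drew the figures.

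The 36 genes, the longer list and the marker lists were chosen with earlier results of these data known. From the longer list, up to 5 called genes per role were named, by smallest p in HF24 against C24. Genes of marker lists were named only where above background on no array, or where named elsewhere: Des is one of the 36, and Myl3 is on the longer list. Alternatives were normexp (offset 50) with quantile normalization, quantile normalization alone, the authors' table, no filter on dim probes and a stricter filter. Others were a fit of all kept probes, a variance trend with intensity, fits of only the groups compared, a block for replicate number, and omission of single arrays. The fit of all kept probes took each gene's probe of smallest p in each comparison, a choice that favours calls. Normexp used the median spot signal.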

Additional observations from a re-analysis of the deposited data

Results flagged for a closer look

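The diet change differed between the feeding times for 31 of the 35 genes, by the interaction term of the limma fit over all features. Of all features, 16.9% were called negative and 12.7% positive by the same term. Values are the HF24 minus C24 change less the HF12 minus C12 change, on the log2 scale. Among the regulators it was −1.79 for Myog, −1.88 for Myod1 and −0.45 for Mef2c, and the fitted value was 2.32 for Pax7, the only positive one; Pax7 was not well above background in HF24, C24 or HF12, so that value is set by background readings. Among receptor and synapse genes it was −1.79 for Chrna1, −1.99 for Chrng, −1.42 for Chrnd, −1.72 for Musk and −0.61 for Rapsn. In the thin filament it was −1.88 for Tnnc1, −1.83 for Tnnc2, −1.58 for Tnni1, −1.85 for Tnni2, −1.43 for Tnnt1, −1.70 for Tnnt3 and −1.24 for Neb. In the thick filament it was −2.28 for Myh3, −1.60 for Myh8, −2.06 for Mylpf, −1.82 for Myl1, −1.81 for Myl4 and −1.90 for Ttn. At the Z-disc and membrane it was −1.78 for Actn2, −0.94 for Des, −2.09 for Cdh15, −1.65 for Sgca and −1.86 for Klhl41. Among the calcium release genes it was −2.11 for Casq2, −1.87 for Ryr1 and −1.53 for Cacna1s, and it was −1.91 for Ckm.

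Normexp with quantile normalization moved the values of 8 genes (Pax7, Ckm, Neb, Ryr1, Sgca, Klhl41, Musk and Rapsn) by more than 1.5 times. The value for Ckm was not called under normexp with quantile normalization (−0.29, limma adjusted p = 0.061). The value for Sgca was not called without C12 replicate 1, HF12 replicate 1 or HF12 replicate 2 (adjusted p = 0.0528 to 0.0569). The value for Rapsn was not called in 10 of its alternatives (adjusted p = 0.0546 to 0.0978). With 2 arrays per group, no group was large enough to look for a single outlying array by the rule for small samples.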

How the results depend on the processing

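The counts of genes lower in HF24 than in C24 (29 to 31 with each array left out, 30 with all), lower at 24 weeks on chow (32 to 33) and on the high-fat diet (32 to 33), and negative in the interaction (28 to 30) stayed within 1.5 times of their values under every alternative. The count lower in HF12 than in C12 was 13, and 7 to 13 with each array left out; the calls of Chrnd, Musk, Myh3, Neb, Ttn and Myl1 were those lost. Counts of higher genes were small and moved more. With each array left out they were 0 to 2 in HF24 against C24, 0 to 3 in HF12 against C12, 0 to 1 in C24 against C12, 0 to 1 in HF24 against HF12 and 1 to 2 in the interaction. With only the groups compared, 1 gene was higher in HF12 against C12 and 0 in C24 against C12. Under quantile normalization 0 were higher in C24 against C12 and 0 in HF24 against HF12, and under normexp 0 in HF24 against HF12. With no filter on dim probes 2 were higher in each comparison of 24 with 12 weeks, and with only probes well above background on all arrays 0 were higher in the interaction. Without HF24 replicate 1, Myf6 was −2.76 in HF24 against C24 and −2.11 in the interaction; without HF24 replicate 2, it turned positive, at 0.93 (limma adjusted p = 0.0095) in HF24 against C24 and 1.58 (adjusted p = 0.00469) in the interaction. Where a lost call is not explained by fewer genes or fewer arrays, the cause was not tested.

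Same-numbered arrays showed little shared deviation (r of −0.08 to 0.17 between groups, over features, the highest for C24 with C12). This check cannot exclude a weak pairing by number. With the replicate number as a block, 30 genes were lower in HF24 against C24, 12 in HF12 against C12, 32 in C24 against C12, 33 in HF24 against HF12 and 29 in the interaction. Normexp moved the log2 change of 5 called genes in HF24 against C24 by more than 1.5 times (Ckm, Ryr1, Sgca, Klhl41 and Musk), of 1 in HF12 against C12, 3 in C24 against C12, 8 in HF24 against HF12 and 8 in the interaction. Over all features, the 3824 called higher in HF24 against C24 became 2247 to 2472 when C24 replicate 1, HF24 replicate 1 or HF24 replicate 2 was left out. The 5198 called lower in HF12 against C12 became 2883 to 3248 without C12 replicate 1 or either HF12 array. With no filter, 13191 features in place of 7262 were higher in C24 against C12 and 12667 in place of 6243 in HF24 against HF12, and the median change over all features was 0.15 and 0.10. Signals near background limit Pax7, Myf6, Ckm and Klhl41, and 2 arrays per group limit the precision of every value.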
